A study of Mus musculus with 6 samples.

Results

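The 10 genes described here were grouped as regulators of how spermatogonia leave the stem cell state, although Upp1 encodes an enzyme of pyrimidine salvage. They are Kit, Stra8, Rarg, Sohlh1, Sohlh2, Dmrt1, Dmrtb1, Sox3, Neurog3 and Upp1. They were taken by symbol from the 31384 genes of the deposited count table. The rule uses no measured value, but the set was put together with earlier results of these data known. All 10 passed the filter on low counts, which kept 16121 genes. The RNA came from a mouse spermatogonial stem cell line grown for 18 days on feeders, which are mouse embryonic fibroblasts stopped from dividing with mitomycin C. The LOVA medium held 5 uM lovastatin, a statin that inhibits cholesterol synthesis, and no GDNF. The NTC medium held neither GDNF nor lovastatin, and the PTC medium held 10 ng/mL GDNF, a ligand on which stem cell self-renewal in such cultures depends. All 3 media also held 10 ng/mL EGF, 10 ng/mL FGF2 and 5000 U LIF, so another growth factor used for stem cell culture, FGF2, was present in every group. Each group had 2 libraries, A and B. The labels do not say whether these came from separate cultures, so a p-value measures only the spread between libraries.

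In the testis, undifferentiated spermatogonia respond to retinoic acid by turning into differentiating spermatogonia that carry the receptor tyrosine kinase KIT, and later enter meiosis. Retinoic acid acts through nuclear receptors such as RARG and induces Stra8, while SOHLH1, SOHLH2 and the DMRT proteins are transcription factors that time these steps. SOX3 and NEUROG3 mark the progenitors that are on the way to differentiation.

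Total counts were between 12454671 and 22668087 per library. Levels are given as CPM, counts divided by library totals that TMM has adjusted so that the bulk of genes lines up between libraries. Because feeder RNA shares the libraries, counts are also given per 1000 counts of 16 pan-germ-cell genes such as Piwil2 and Dazl. On that scale both NTC libraries lay above both PTC libraries for 75.8% of all genes, and both LOVA libraries for 69.1%. How much of each gene's RNA came from feeders was not tested. These 16 genes took 0.329% and 0.185% of counts in the A and B libraries of LOVA, 0.277% and 0.186% in those of NTC, and 0.478% and 0.476% in those of PTC. The 20 feeder fibroblast markers took 1.69% to 3.14% in LOVA, 1.87% to 3.11% in NTC and 0.164% to 0.678% in PTC. The 12 macrophage markers took 0.0428% to 0.0507% in LOVA, 0.193% to 0.240% in NTC and 0.0245% to 0.0288% in PTC. The germ cell share was thus lower, and the feeder share higher, in every LOVA and NTC library than in both PTC libraries. In bulk RNA, fewer germ cells and less RNA per germ cell cannot be told apart. Zbtb16, a defining transcription factor of undifferentiated spermatogonia, was present at 218 and 127 CPM in LOVA, 134 and 125 CPM in NTC and 389 and 387 CPM in PTC.

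**Figure D1:**
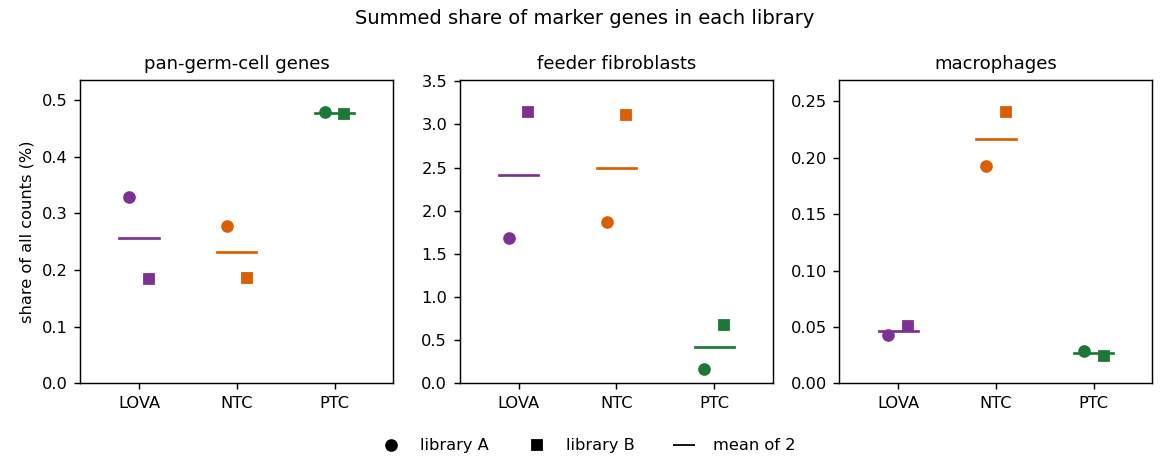
Summed share of all counts (in %, linear axes from 0) of the 16 pan-germ-cell genes, the 20 feeder fibroblast markers and the 12 macrophage markers in each library of LOVA, NTC and PTC. Points are libraries and lines are means of 2. PTC has the highest germ cell shares, 0.478% and 0.476%, and the lowest feeder shares.

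The 10 genes did not move as a block. Relative to PTC on the CPM scale, Sox3, Dmrt1 and Upp1 fell in both NTC and LOVA, and Sohlh2 fell in NTC, by 1.92-fold to 2.87-fold. Kit, Stra8 and Neurog3 had overlapping libraries in both comparisons. Of the 10 genes, 4 were called lower and 0 higher in NTC than in PTC by edgeR's quasi-likelihood test at an adjusted p under 0.05, where 12.9% of all genes tested were called lower and 21.5% higher. In LOVA against PTC 3 were called lower and 0 higher, with 10.8% and 19.8% of all genes. DESeq2 and limma-voom also called 0 of the 10 higher in either comparison, and no member with an unadjusted p under 0.05 was higher. Both NTC libraries lay below both PTC libraries for 6 of the 10, against 38.5% of all genes, and both LOVA libraries lay below both PTC libraries for 7, against 37.9%. The median log2 fold change of the 10 was -0.62 in NTC minus PTC and -1.04 in LOVA minus PTC, beside -0.02 and 0.00 over all genes. The NTC and LOVA comparisons share the PTC libraries, so their likeness is not independent evidence. Without NTC A, NTC B, PTC A or PTC B, fewer of all genes were called in NTC minus PTC. The same held without LOVA B or PTC A in LOVA minus PTC. Calls lost in these fits are thus not particular to the 10 genes.

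**Figure D2:**
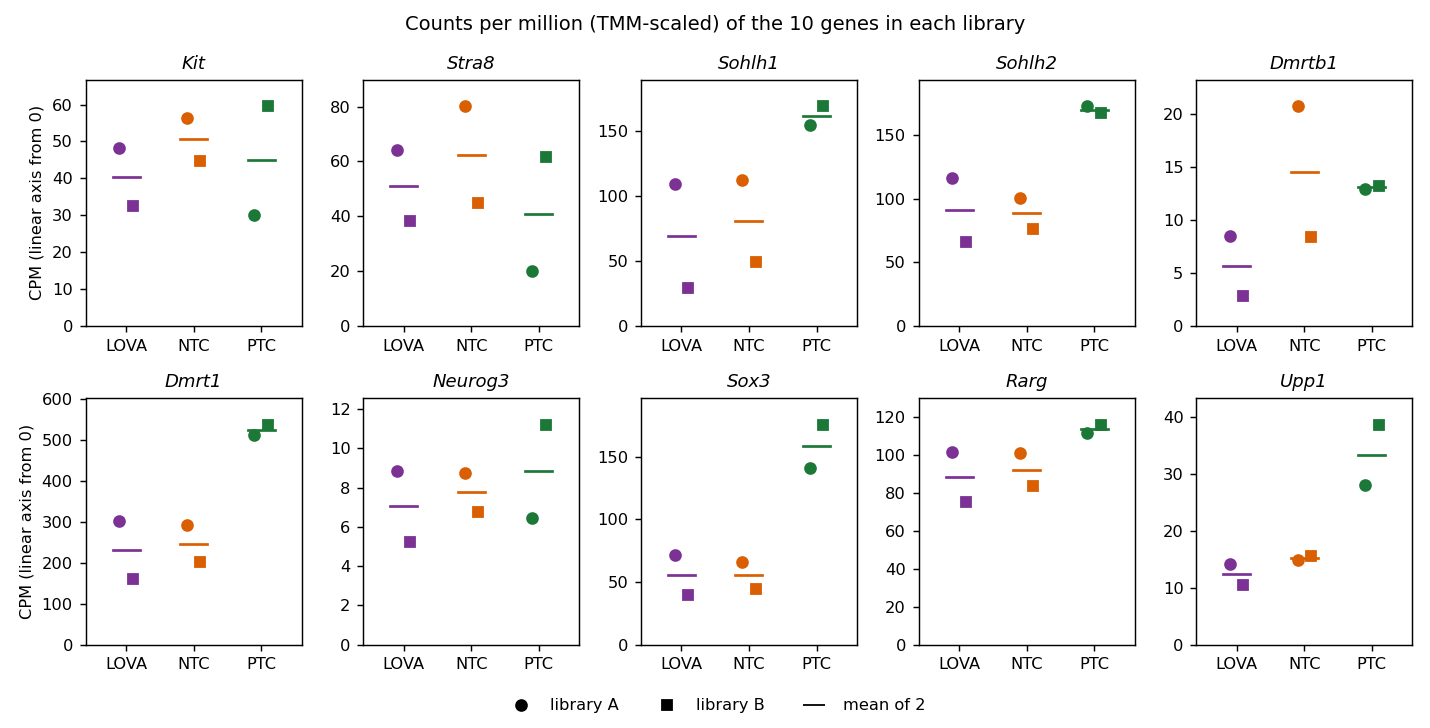
TMM-scaled CPM (linear axes from 0) of each of the 10 genes in LOVA, NTC and PTC. Circles are A libraries, squares are B libraries and lines are means of 2. Sohlh1, Sohlh2, Dmrt1, Sox3, Rarg and Upp1 lie lower in all 4 LOVA and NTC libraries than in both PTC libraries, while Kit, Stra8 and Neurog3 are split between PTC A and PTC B.

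Per kilobase of exon, and averaged over the 6 libraries, Dmrt1 had the highest level at 129 CPM per kb, followed by Sohlh1 at 80.7, Sohlh2 at 49.3 and Sox3 at 43.5 CPM per kb. Stra8 had 28.6, Rarg 23.1 and Upp1 10.3 CPM per kb. Dmrtb1 at 5.34, Kit at 5.08 and Neurog3 at 4.71 CPM per kb were the lowest. The order differed between groups, since Stra8 averaged 28.4 and Sox3 26.9 CPM per kb in LOVA, Stra8 34.7 and Sox3 26.8 in NTC, but Sox3 76.7, Rarg 26.8 and Stra8 22.7 in PTC. The steps between the last 3 were smaller than the spread between libraries, since Dmrtb1 alone had 1.36 CPM per kb in LOVA B and 9.98 CPM per kb in NTC A.

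Kit (ENSMUSG00000005672, chr5:75574916-75656722, plus strand, mm10) encodes the receptor for KIT ligand and marks differentiating spermatogonia. Its A and B libraries had 48.3 and 32.6 CPM in LOVA, 56.5 and 44.6 CPM in NTC, and 30.2 and 59.6 CPM in PTC. PTC therefore held both the lowest and the highest of the 6 values, and the groups overlapped. The log2 fold change was 0.17 (95% interval -0.68 to 1.01) in NTC minus PTC and -0.15 (-1.0 to 0.70) in LOVA minus PTC, with edgeR adjusted p of 0.733 and 0.759. Per 1000 pan-germ-cell counts, Kit stood at 15.1 and 16.5 in LOVA, 20.5 and 22.4 in NTC, and 6.71 and 13.0 in PTC. On that scale the groups no longer overlapped, and both PTC libraries were lowest. Both NTC libraries lay above PTC for 75.8% of all genes too, and both LOVA libraries for 69.1%. The median log2 fold change over all genes there was 0.95 in NTC minus PTC and 0.89 in LOVA minus PTC. Under scaling to the pan-germ-cell genes, the log2 fold change was 1.13 (0.24 to 2.02, adjusted p = 0.0590) in NTC minus PTC and 0.68 (-0.21 to 1.57, adjusted p = 0.198) in LOVA minus PTC, and neither was called.

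Stra8 (ENSMUSG00000029848, chr6:34920163-34939344, plus strand) is induced by retinoic acid and needed for meiotic entry. Its promoter is shown because it holds 2 copies of AGGTCA, the half-site that retinoic acid receptors can bind. The 250 bases before its RefSeq start (GRCm38.p6, chr6:34920698-34920947, plus strand, 5′ to 3′) carry the copies, in capitals, beginning 194 and 38 bases before the start:
Stra8 promoter: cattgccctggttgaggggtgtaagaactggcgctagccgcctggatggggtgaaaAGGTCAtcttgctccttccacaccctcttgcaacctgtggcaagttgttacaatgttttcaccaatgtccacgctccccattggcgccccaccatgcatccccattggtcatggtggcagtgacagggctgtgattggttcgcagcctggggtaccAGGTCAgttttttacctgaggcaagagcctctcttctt
AGGTCA was searched on both strands. At least 1 copy was in 14.0%, and at least 2 were in 1.36%, of the 32851 RefSeq windows of this length. A match is a description of letters, not a bound site. Stra8 had 64.0 and 38.3 CPM in LOVA, 80.2 and 44.8 CPM in NTC, and 19.9 and 61.8 CPM in PTC. PTC A was the lowest library and the groups overlapped. The log2 fold change was 0.61 (-0.77 to 1.99, edgeR adjusted p = 0.432) in NTC minus PTC and 0.32 (-1.06 to 1.70, adjusted p = 0.681) in LOVA minus PTC. Relative to 1000 pan-germ-cell counts, Stra8 had 20.0 and 19.4 in LOVA, 29.1 and 22.5 in NTC, and 4.44 and 13.4 in PTC. All 4 libraries without GDNF lay above both PTC libraries there. So did both NTC libraries for 75.8%, and both LOVA libraries for 69.1%, of all genes. With that scaling the log2 fold change was 1.53 (0.27 to 2.79, adjusted p = 0.0656) in NTC minus PTC and 1.14 (-0.12 to 2.39, adjusted p = 0.140) in LOVA minus PTC, so neither was called.

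The PTC libraries disagreed most on the same genes. Stra8 was 3.10 times as high in PTC B as in PTC A, a ratio reached by 5.65% of all genes tested, Kit 1.98 times (10.5% of genes) and Neurog3 1.74 times (12.7%). Sohlh1, Sohlh2, Dmrt1, Dmrtb1 and Rarg differed by at most 1.10-fold between those libraries. The feeder share was 0.164% in PTC A and 0.678% in PTC B, and its part in these ratios was not tested. In LOVA all 10 genes were higher in A than in B, and in NTC 9 were, all but Upp1. The germ cell share was higher in A too, 0.329% against 0.185% in LOVA and 0.277% against 0.186% in NTC. Its part in these gaps was not tested. Per 1000 pan-germ-cell counts Kit, Rarg and Upp1 were higher in LOVA B, and the rest of the 10 in LOVA A. The steepest gaps in CPM were those of Sohlh1, 3.72-fold in LOVA and 2.29-fold in NTC, and Dmrtb1, 3.01-fold and 2.48-fold. Gaps of that size or more in that direction were found in 2.23% and 3.46% of genes for Sohlh1. For Dmrtb1 they were found in 3.03% and 2.85%. Without PTC A, the Kit log2 fold change in NTC minus PTC was -0.24, and the Stra8 change in LOVA minus PTC was -0.27, both opposite in sign to the values from all libraries.

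Rarg (ENSMUSG00000001288, chr15:102234938-102257517, minus strand) encodes the retinoic acid receptor that gives undifferentiated spermatogonia competence to differentiate. It had 102 and 75.3 CPM in LOVA, 101 and 83.8 CPM in NTC, and 112 and 116 CPM in PTC. Both PTC libraries were highest by a small margin. The log2 fold change was -0.30 (-0.79 to 0.18, edgeR adjusted p = 0.271) in NTC minus PTC and -0.37 (-0.85 to 0.12, adjusted p = 0.196) in LOVA minus PTC. The order turned over per 1000 pan-germ-cell counts, with 31.7 and 38.1 in LOVA, 36.7 and 42.1 in NTC, and 24.9 and 25.3 in PTC. Both NTC and both LOVA libraries likewise lay above PTC for 75.8% and 69.1% of all genes. The part of feeder RNA in the Rarg counts was not tested. Under that scaling the NTC minus PTC change was 0.65 (0.02 to 1.28, adjusted p = 0.0951), not called.

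Sohlh1 and Sohlh2 encode partner bHLH transcription factors of spermatogonial differentiation. Sohlh1 (ENSMUSG00000059625, chr2:25842995-25847248, minus strand) is shown with its promoter because the window holds 3 copies of CACGTG, an E-box, the class of motif that bHLH proteins bind. In the 250 bases before its start (RefSeq, GRCm38.p6, chr2:25847249-25847498, minus strand, 5′ to 3′), the capitals mark the copies, which begin 231, 211 and 192 bases before the start:
Sohlh1 promoter: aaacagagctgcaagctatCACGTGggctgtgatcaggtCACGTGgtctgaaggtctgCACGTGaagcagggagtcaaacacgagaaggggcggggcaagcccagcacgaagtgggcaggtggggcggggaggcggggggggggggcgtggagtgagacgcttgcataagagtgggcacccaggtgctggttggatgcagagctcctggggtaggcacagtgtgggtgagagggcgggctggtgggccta
CACGTG reads the same on both strands and is 1 form of the broader CANNTG. At least 1 copy was in 6.02%, and at least 3 were in 0.0609%, of the 32851 windows. One AGGTCA, beginning 215 bases before the start, overlaps the second copy. The Sohlh2 window held 0 CACGTG and 0 AGGTCA. Promoter windows were matched for 8 of the 10 genes, not for Dmrt1 and Sox3, and Rarg was the only other gene with either motif, 1 AGGTCA in 1 of its 2 windows.

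Sohlh1 had 109 and 29.4 CPM in LOVA, 112 and 49.0 CPM in NTC, and 154 and 169 CPM in PTC. All 4 libraries without GDNF were below PTC, but the libraries within LOVA and within NTC differed too much for a call. The log2 fold change was -1.01 (-2.54 to 0.53, edgeR adjusted p = 0.250) in NTC minus PTC and -1.22 (-2.77 to 0.32, adjusted p = 0.179) in LOVA minus PTC. The NTC value was -1.72 without NTC A and -0.53 without NTC B. In LOVA minus PTC it was -0.57 without LOVA B and -2.47 without LOVA A, where it was called (adjusted p = 0.0475). With no low-count filter Sohlh1 was called in both comparisons. Sohlh2 (ENSMUSG00000027794, chr3:55182028-55209957, plus strand) was tighter, with 116 and 66.1 CPM in LOVA, 101 and 76.3 CPM in NTC, and 173 and 167 CPM in PTC. It fell 1.92-fold in NTC (log2 -0.94, SE 0.29, edgeR adjusted p = 0.0432), and its value in LOVA minus PTC, -0.90 (SE 0.29), missed the threshold at 0.0530. That LOVA change was called in 6 of 14 alternatives, among them DESeq2 (adjusted p = 0.0228), limma-voom (0.0348) and DESeq2 size factors in edgeR (0.0469). Without LOVA A it was -1.37 (called, adjusted p = 0.00616) and without LOVA B -0.55. The NTC call was lost without any one of NTC A, NTC B, PTC A or PTC B (log2 fold change -1.15 to -0.75, highest adjusted p 0.236). Sohlh2 was nearly level per 1000 pan-germ-cell counts, at 36.3 and 33.4 in LOVA, 36.6 and 38.4 in NTC, and 38.4 and 36.4 in PTC. Sohlh1 was not level within groups on that scale, at 34.1 and 14.9 in LOVA, 40.8 and 24.6 in NTC, and 34.4 and 36.8 in PTC.

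Dmrt1 (ENSMUSG00000024837, chr19:25505618-25604329, plus strand) encodes a transcription factor that restrains the mitosis-to-meiosis switch and maintains spermatogonia. It was the most abundant of the 10, with 303 and 161 CPM in LOVA, 292 and 201 CPM in NTC, and 512 and 538 CPM in PTC. The highest library without GDNF stood well below the lower PTC library. Dmrt1 fell 2.13-fold in NTC (log2 -1.09, SE 0.32, edgeR adjusted p = 0.0393) and 2.26-fold in LOVA (log2 -1.18, SE 0.32, adjusted p = 0.0353). The NTC call was lost without any one of NTC A, NTC B, PTC A or PTC B (-1.38 to -0.84, highest adjusted p 0.222), and the LOVA call without LOVA B, PTC A or PTC B (-1.71 to -0.79, highest adjusted p 0.106). Set against 1000 pan-germ-cell counts it had 94.5 and 81.5 in LOVA, 106 and 101 in NTC, and 114 and 117 in PTC. All 4 libraries without GDNF stayed below PTC there, and LOVA and NTC, which overlapped in CPM, did not. With that scaling the log2 fold change was -0.16 in NTC minus PTC and -0.39 in LOVA minus PTC, neither called (adjusted p = 0.650 and 0.278).

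Dmrtb1 (ENSMUSG00000028610, chr4:107676290-107684230, minus strand), also called DMRT6, encodes a DMRT factor that acts as differentiating spermatogonia give up their mitotic programme. It had 8.54 and 2.84 CPM in LOVA, 20.8 and 8.38 CPM in NTC, and 13.0 and 13.2 CPM in PTC, from 33 counts in LOVA B to 311 counts in PTC B. LOVA lay below PTC, while NTC lay on both sides of it. The log2 fold change was 0.15 (-1.21 to 1.51, edgeR adjusted p = 0.855) in NTC minus PTC and -1.19 (-2.60 to 0.22, adjusted p = 0.158) in LOVA minus PTC. The LOVA value was -2.21 without LOVA A, where it was called (adjusted p = 0.0354), and -0.62 without LOVA B, and it was called with no low-count filter (-1.22, adjusted p = 0.00477). The NTC value was -0.64 without NTC A and 0.67 without NTC B.

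Sox3 (ENSMUSG00000045179, chrX:60891366-60893430, minus strand) encodes an SRY-related factor of progenitor spermatogonia and had the largest of the 10 changes from PTC in NTC and LOVA with TMM scaling and all libraries. Under pan-germ-cell scaling Stra8 had larger ones in both. In NTC minus PTC so did Kit (1.13), Dmrtb1 (1.03), Neurog3 (0.76) and Rarg (0.65). Without LOVA A the changes of Sohlh1 (-2.47) and Dmrtb1 (-2.21) in LOVA minus PTC were larger than that of Sox3 (-2.0). Without PTC B the Stra8 change in NTC minus PTC (1.64) was larger in size than that of Sox3 (-1.36). Sox3 had 71.3 and 39.7 CPM in LOVA, 65.7 and 44.8 CPM in NTC, and 141 and 176 CPM in PTC. The highest library without GDNF, LOVA A, lay far below the lower PTC library. Sox3 fell 2.87-fold in NTC (log2 -1.52, SE 0.33, edgeR adjusted p = 0.0177) and 2.85-fold in LOVA (log2 -1.51, SE 0.33, adjusted p = 0.0222). The NTC call was lost without NTC B or PTC B (highest adjusted p 0.124), and the LOVA call without LOVA B, PTC A or PTC B (highest adjusted p 0.0627). Without any 1 library the log2 fold change lay between -1.82 and -1.27 in NTC and between -2.0 and -1.15 in LOVA. On the pan-germ-cell scale Sox3 had 22.2 and 20.1 in LOVA, 23.9 and 22.5 in NTC, and 31.4 and 38.2 in PTC. It still lay below PTC in all 4 libraries, with a log2 fold change of -0.59 (-1.21 to 0.04, adjusted p = 0.123) in NTC and -0.72 (-1.35 to -0.09, adjusted p = 0.0834) in LOVA under that scaling.

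Neurog3 (ENSMUSG00000044312, chr10:62133090-62134763, plus strand) encodes a bHLH factor of progenitor spermatogonia. It had 8.83 and 5.25 CPM in LOVA, 8.76 and 6.77 CPM in NTC, and 6.46 and 11.2 CPM in PTC. The groups overlapped, and PTC held the highest value. The log2 fold change was -0.19 (-1.16 to 0.78, edgeR adjusted p = 0.735) in NTC minus PTC and -0.33 (-1.30 to 0.65, adjusted p = 0.553) in LOVA minus PTC. Its exons overlap those of Fam241b on the other strand, and since the sources used here do not state whether counting used strand, reads of these genes may not be told apart. Per 1000 pan-germ-cell counts it had 2.75 and 2.65 in LOVA, 3.19 and 3.40 in NTC, and 1.44 and 2.44 in PTC, with all 4 libraries without GDNF above both PTC libraries. On that scale 75.8% of all genes lay above PTC in both NTC libraries, and 69.1% in both LOVA libraries.

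Upp1 (ENSMUSG00000020407, chr11:9118103-9136170, plus strand) encodes uridine phosphorylase, an enzyme of pyrimidine salvage. It had 14.2 and 10.5 CPM in LOVA, 14.8 and 15.6 CPM in NTC, and 28.1 and 38.6 CPM in PTC. PTC was highest in both libraries, and LOVA lay below NTC without overlap. Upp1 fell 2.19-fold in NTC (log2 -1.13, SE 0.27, edgeR adjusted p = 0.0223) and 2.70-fold in LOVA (log2 -1.44, SE 0.27, adjusted p = 0.0181). The NTC call was lost without any one of NTC A, NTC B, PTC A or PTC B (log2 -1.35 to -0.89, highest adjusted p 0.130), and the LOVA call without LOVA B or PTC B (log2 -1.68 to -1.19, highest adjusted p 0.0642). Per 1000 pan-germ-cell counts it had 4.42 and 5.30 in LOVA, 5.39 and 7.85 in NTC, and 6.25 and 8.41 in PTC, and NTC and PTC overlapped.

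**Figure D3:**
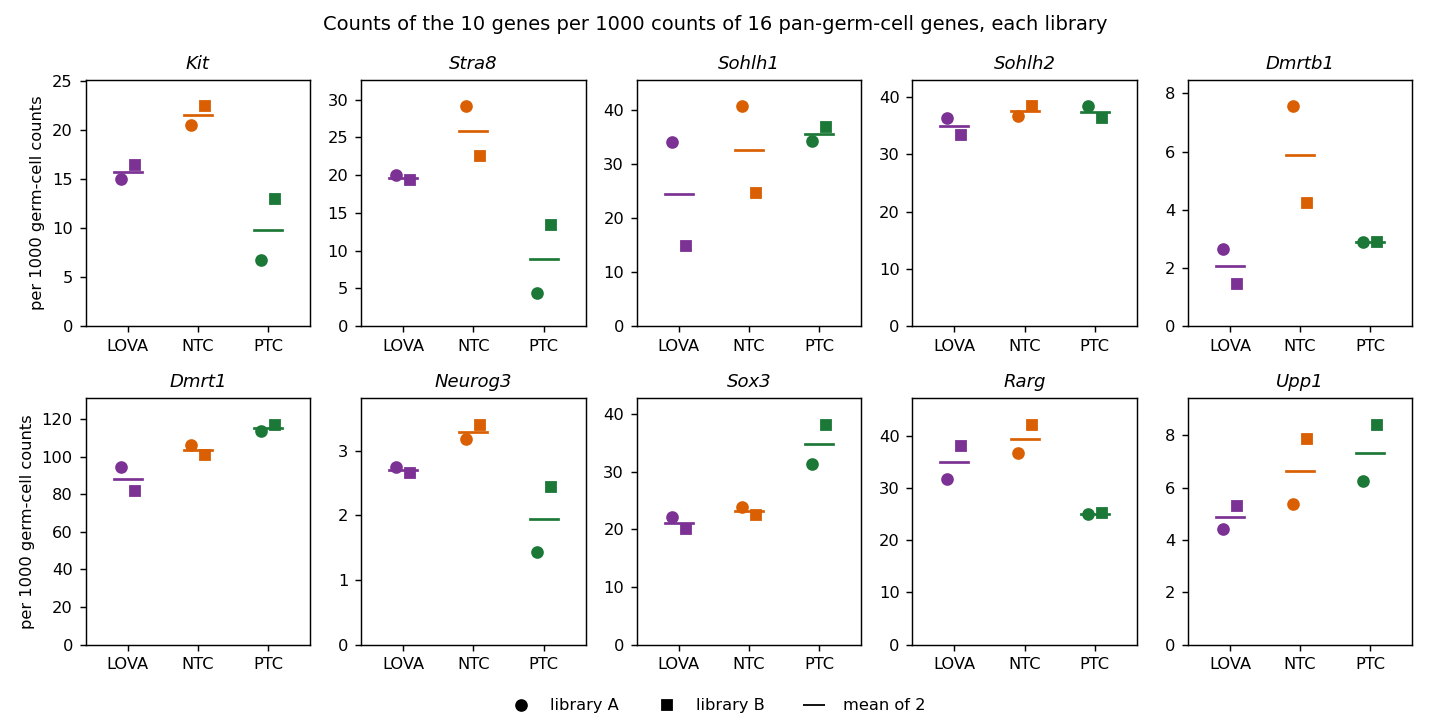
Counts of each gene per 1000 counts of the 16 pan-germ-cell genes (linear axes from 0) in LOVA, NTC and PTC, with circles for A, squares for B and lines for means of 2. Kit, Stra8, Neurog3 and Rarg lie higher in all 4 LOVA and NTC libraries than in both PTC libraries, Sox3 and Dmrt1 lie lower, and Sohlh2 is nearly level. Over all genes, both NTC libraries lie above both PTC libraries for 75.8% and below for 5.55%. Both LOVA libraries lie above for 69.1% and below for 7.64%.

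Scaling to the pan-germ-cell genes moved the median log2 fold change of all genes by 0.97 in NTC minus PTC and by 0.88 in LOVA minus PTC. Under it 0 of the 10 genes were called by edgeR in any comparison, while 31.1% of all genes came out higher in NTC than in PTC and 0.273% lower, and 25.0% came out higher in LOVA than in PTC and 0.254% lower. At an unadjusted p under 0.05 it left 3 of the 10, Kit, Stra8 and Rarg, all higher in NTC than in PTC, and 1, Sox3, lower in LOVA than in PTC. Over all 16121 genes, 7746 were under that threshold in NTC minus PTC and 7156 in LOVA minus PTC. The 10 thus do not stand out at it. Both NTC libraries lay above both PTC libraries for 5 of the 10 (Kit, Stra8, Dmrtb1, Neurog3 and Rarg), beside 75.8% of all genes, and below them for 2, beside 5.55%. Both LOVA libraries lay above for 4 and below for 6, beside 69.1% and 7.64%. The median of the 10 was 0.33 in NTC minus PTC and -0.25 in LOVA minus PTC, beside 0.95 and 0.89 over all genes. The median of the 10 thus lay below that of all genes in both comparisons and on both scales. Because the scaling moves all genes by a similar amount, the second scale adds no independent support. The direction of Kit in LOVA, of Sohlh2 in NTC, and of Neurog3 and Rarg in both, turned with the scale.

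**Figure D4:**
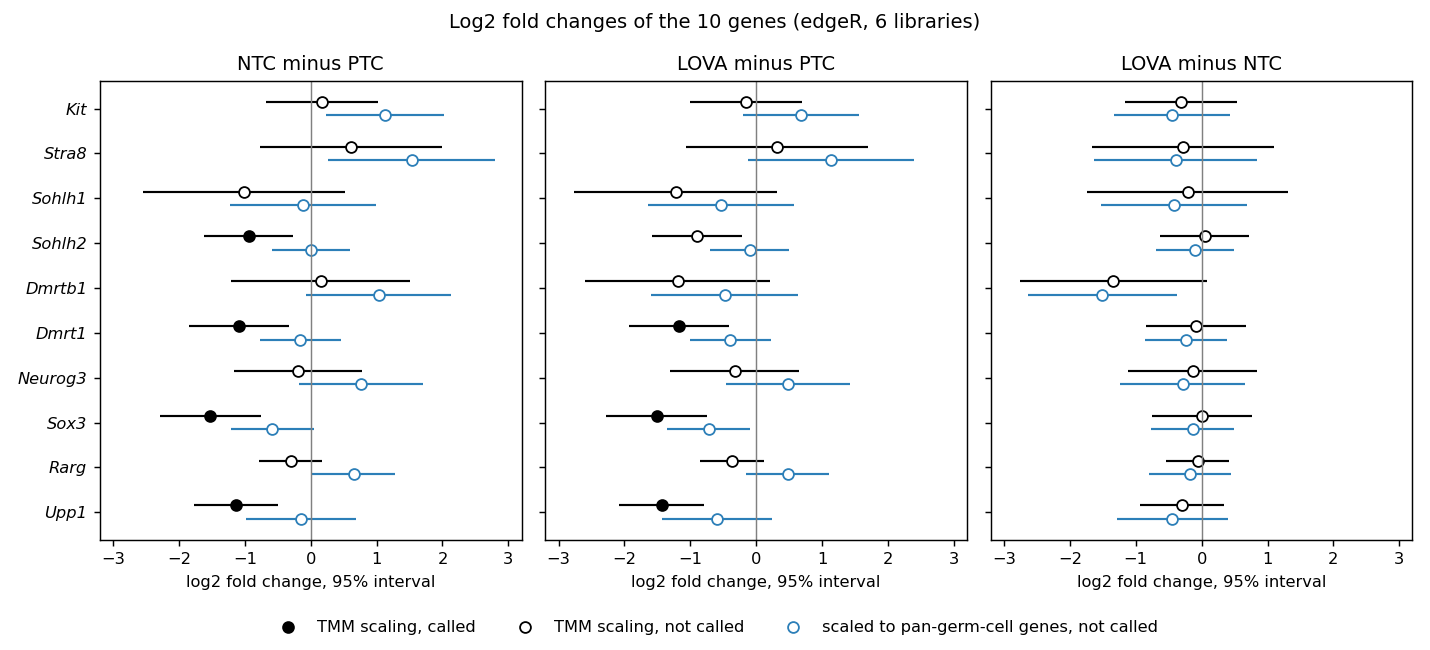
Log2 fold changes of the 10 genes with 95% intervals from edgeR over 6 libraries, with TMM scaling (black) and with scaling to the pan-germ-cell genes (blue); filled points are called at an adjusted p under 0.05. The called points are Sohlh2, Dmrt1, Sox3 and Upp1 in NTC minus PTC and Dmrt1, Sox3 and Upp1 in LOVA minus PTC, all with TMM.

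LOVA minus NTC asks what lovastatin did in medium without GDNF. None of the 10 genes was called, and 0.0% of all genes were, by edgeR with TMM scaling. At an unadjusted p under 0.05 there were 0 of the 10 and 561 of all 16121 genes, fewer than that threshold gives where no gene differs. DESeq2 and limma-voom also called 0 of the 10, though over all genes DESeq2 called 19 higher and 86 lower and limma-voom 0 and 4. The difference nearest to a call was that of Dmrtb1, at 8.54 and 2.84 CPM in LOVA against 20.8 and 8.38 CPM in NTC, a log2 fold change of -1.34 (-2.76 to 0.07, unadjusted p = 0.0600, edgeR adjusted p = 1.00). LOVA A and NTC B were almost equal, so the groups overlapped narrowly. Without the low-count filter the same value was called at an adjusted p of 0.0358, and in the other 13 alternatives it was not. For the other 9 genes the log2 fold changes lay between -0.32 (Kit) and 0.05 (Sohlh2). The intervals reached from -1.17 to 0.53 for Kit, -1.66 to 1.09 for Stra8 and -0.54 to 0.42 for Rarg. Changes within those ranges are therefore not excluded.

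Per 1000 pan-germ-cell counts, both LOVA libraries lay below both NTC libraries for 8 of the 10 genes, all but Sohlh1 and Rarg, beside 14.4% of all genes. With that scaling all 10 log2 fold changes were negative, with a median of -0.34 beside -0.09 over all genes, and 0 were called. Dmrtb1 had 2.66 and 1.44 in LOVA against 7.56 and 4.22 in NTC, a log2 fold change of -1.51 (-2.64 to -0.38, unadjusted p = 0.0168, edgeR adjusted p = 1.00). It was 1 of 340 genes, of 16121 tested, with an unadjusted p under 0.05, fewer than that threshold gives where no gene differs. On the CPM scale only Upp1 of the 10 had both LOVA libraries below both NTC libraries, beside 13.0% of all genes. The pan-germ-cell genes themselves had a median of -0.15 under their own scaling in LOVA minus NTC, with 3 of 15 above and 4 of 15 below without overlap, so the yardstick is not level between these groups. In LOVA minus PTC their own median was -0.26, with 5 above and 9 below, beside -0.25 for the 10 described genes on that scale. In NTC minus PTC the median of the pan-germ-cell genes was 0.03, with 6 above and 6 below.

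Several genes that make, carry or degrade retinoic acid were higher without GDNF. Of 20 genes for these steps and for its receptors, 15 were tested, and 7 rose and 0 fell in NTC against PTC, while 6 rose and 1 (Rxrb, a retinoid X receptor) fell in LOVA against PTC. Over all genes 21.5% were called higher in NTC and 19.8% in LOVA. With pan-germ-cell scaling 9 and 6 of the 15 rose and 0 fell, where 31.1% and 25.0% of all genes were called higher. The medians with TMM were 0.91 and 0.68 on the log2 scale, beside -0.02 and 0.00 over all genes. Aldh1a1, which makes retinoic acid from retinal, had 40.2 and 86.7 CPM in LOVA, 68.7 and 116 CPM in NTC, and 5.21 and 7.59 CPM in PTC. It rose 14.3-fold in NTC (log2 3.84, edgeR adjusted p = 0.00859) and 9.84-fold in LOVA (log2 3.30, adjusted p = 0.0167). Both groups without GDNF lay far above PTC. Without NTC B, Aldh1a1 missed the threshold in NTC minus PTC (adjusted p = 0.0600), and in LOVA minus PTC it stayed under the threshold whichever library was left out (highest adjusted p 0.0428).

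Crabp1, a retinoic acid binding protein of the cytoplasm, had 170 and 172 CPM in LOVA, 218 and 176 CPM in NTC, and 98.3 and 88.8 CPM in PTC, and rose 2.11-fold in NTC and 1.82-fold in LOVA. Aldh1a2, a further retinal dehydrogenase, rose 2.50-fold in NTC and 1.88-fold in LOVA. Rdh11, a retinol dehydrogenase, rose 1.88-fold in NTC and 2.94-fold in LOVA, with 39.7 and 49.1 CPM in LOVA, 24.9 and 31.8 CPM in NTC, and 13.4 and 16.7 CPM in PTC. These groups did not overlap against PTC. The calls rested on few libraries. Fewer of the list rose without NTC A, NTC B, PTC A or PTC B in NTC minus PTC. The same held without LOVA B or PTC A in LOVA minus PTC. Over all genes fewer were called in these fits too, so the loss is not particular to this list. With 1 library left out, the list median lay between 0.80 and 1.06 in NTC minus PTC. In LOVA minus PTC it lay between 0.23 and 0.87. Rxrb was called with 1 library left out only where that was LOVA A. The feeder share moved the same way, 1.69% to 3.14% in LOVA and 1.87% to 3.11% in NTC against 0.164% to 0.678% in PTC, and its part in these values was not tested.

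Of 15 genes for KIT ligand and its signal transducers, all tested, 6 rose and 1 fell in NTC against PTC, and 4 rose and 1 fell in LOVA against PTC. The shares over all genes were 21.5% higher and 12.9% lower in NTC, and 19.8% and 10.8% in LOVA, so the LOVA count lies near the background. Kitl, the ligand of KIT, had 30.6 and 82.3 CPM in LOVA, 29.9 and 47.6 CPM in NTC, and 2.88 and 8.65 CPM in PTC. It rose 6.62-fold in NTC (log2 2.73, 1.10 to 4.35, edgeR adjusted p = 0.0269) and 9.62-fold in LOVA (log2 3.27, 1.61 to 4.92, adjusted p = 0.0229), while Kit itself was not called. The call was lost without NTC A, NTC B or PTC A in NTC minus PTC (log2 2.16 to 3.74, highest adjusted p 0.156), and without LOVA B or PTC A in LOVA minus PTC (2.38 to 4.28, highest adjusted p 0.120). Kitl was higher in the B library than in the A library of every group, as the feeder share was. Pik3r1, the regulatory subunit of the kinase PI3K, had 56.8 and 116 CPM in LOVA, 59.4 and 96.5 CPM in NTC, and 8.90 and 17.5 CPM in PTC, and rose 5.87-fold in NTC and 6.48-fold in LOVA. Shc1, an adaptor, rose 1.68-fold and 1.71-fold in NTC and LOVA. Fyn, a SRC family kinase, fell 2.18-fold and 1.71-fold with TMM, but with pan-germ-cell scaling its log2 fold change was -0.15 (adjusted p = 0.756) in NTC and 0.11 (adjusted p = 0.834) in LOVA. The Fyn call was also lost without NTC A, NTC B or PTC A in NTC minus PTC (highest adjusted p 0.0966), and without LOVA B, NTC A, NTC B or PTC A in LOVA minus PTC (highest adjusted p 0.212). The medians of the 15 were 0.16 and 0.04, beside -0.02 and 0.00 over all genes. With pan-germ-cell scaling 6 and 5 of the 15 rose and 0 fell. Under that scaling 31.1% and 25.0% of all genes were called higher in NTC and LOVA, and 0.273% and 0.254% lower. Fewer of the 15 rose without NTC A, NTC B, PTC A or PTC B in NTC minus PTC. The same held without LOVA B or PTC A in LOVA minus PTC. Over all genes fewer were called in these fits too, so the loss is not particular to this list. With 1 library left out, the list median lay between 0.09 and 0.30 in NTC minus PTC. In LOVA minus PTC it lay between -0.015 and 0.45. In LOVA minus NTC 0 of the 15 genes of each of these lists were called by edgeR.

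**Figure D5:**
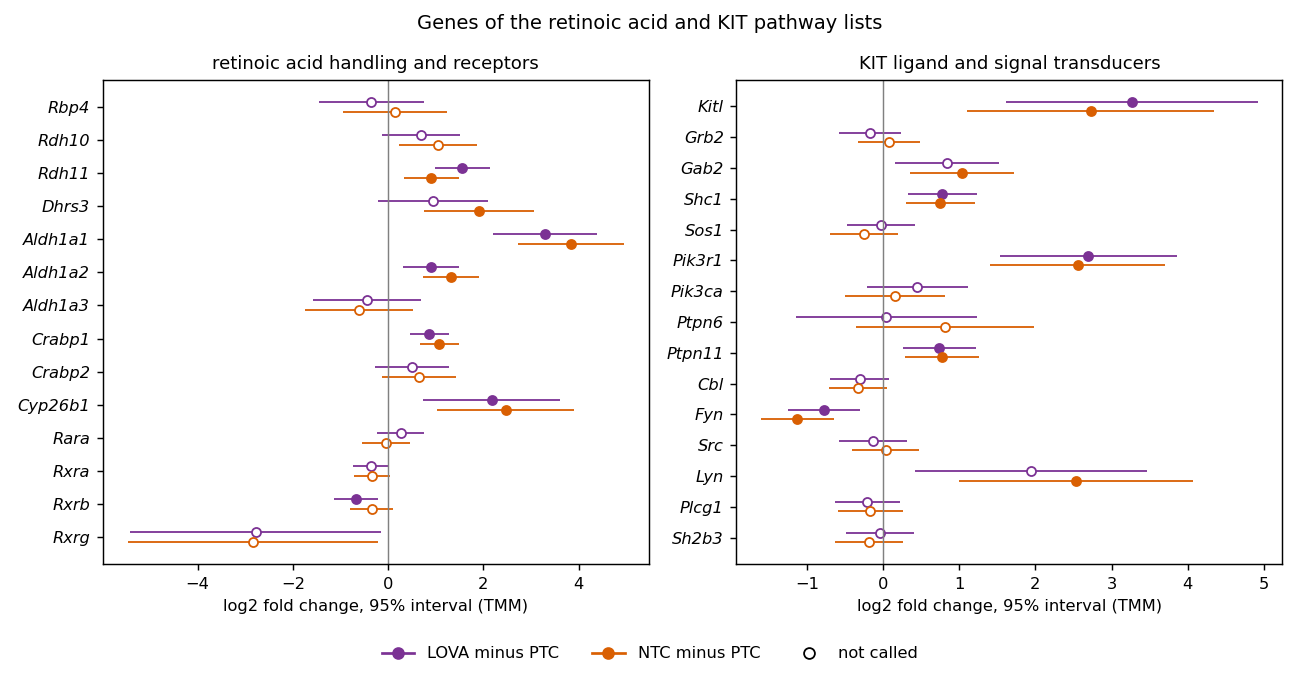
Log2 fold changes with 95% intervals (edgeR, TMM scaling) of tested genes for retinoic acid handling (left) and for KIT ligand and its transducers (right), LOVA minus PTC above NTC minus PTC in each row; filled points are called. Aldh1a1 at 3.30 and 3.84 and Kitl at 3.27 and 2.73 have the highest values of their lists.

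Genes of the stages on either side gave a frame for the 10. Of 21 genes of undifferentiated spermatogonia 20 were tested, and 14 fell in NTC and 13 in LOVA against PTC, with 0 risen and medians of -1.27 and -1.21, where 12.9% and 10.8% of all genes were called lower. With pan-germ-cell scaling 3 fell in NTC (Lhx1, Ret and Nanos2) and 2 in LOVA (Lhx1 and Pou3f1), where 0.273% and 0.254% of all genes were called lower. Lhx1, a GDNF-responsive homeobox gene, had 1.21 and 0.774 CPM in LOVA, 0.478 and 0.322 CPM in NTC, and 14.5 and 9.08 CPM in PTC. Ret, the GDNF receptor kinase, had 105 and 64.5 CPM in LOVA, 68.3 and 54.1 CPM in NTC, and 292 and 199 CPM in PTC. Both fell in both comparisons, with log2 fold changes of -4.87 (Lhx1) and -2.0 (Ret) in NTC and of -3.55 and -1.53 in LOVA. Zbtb16 at -1.58 and Nanos2, an RNA-binding protein of stem cells, at -2.03 fell in NTC, and Pou3f1 at -1.89 and Foxo1 at -1.17, both transcription factors, fell in LOVA. With pan-germ-cell scaling Zbtb16 in NTC was at -0.61 (adjusted p = 0.118), and Ret and Foxo1 in LOVA were at -0.73 and -0.36 (adjusted p = 0.107 and 0.306), none called. Fewer of the 20 fell without NTC A, NTC B, PTC A or PTC B in NTC minus PTC, and without LOVA B or PTC A in LOVA minus PTC. Over all genes fewer were called in these fits too, so the loss is not particular to this list. With 1 library left out, the list median lay between -1.53 and -1.13 in NTC minus PTC. In LOVA minus PTC it lay between -1.62 and -0.85.

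Of 20 genes of meiotic entry and prophase, all tested, 1 fell in NTC against PTC (Tex11, a recombination factor, log2 -0.90, edgeR adjusted p = 0.0468) and 0 were called in LOVA against PTC, below the 12.9% and 10.8% of all genes called lower. With pan-germ-cell scaling Tex11 in NTC was at 0.03 (edgeR adjusted p = 0.940). Under it 2 of the 20 genes, Sycp1 and Sycp2 of the synaptonemal complex, rose in both comparisons and 0 fell. That is a smaller share than the 31.1% and 25.0% of all genes called higher in NTC and LOVA. Over all genes 0.273% and 0.254% were called lower under it. The medians with TMM were -0.29 and -0.36, beside -0.02 and 0.00 over all genes. The Tex11 call was lost without any one of NTC A, NTC B, PTC A or PTC B (highest adjusted p 0.255). Without LOVA A 5 of the 20 fell in LOVA against PTC, and 3 in NTC against PTC, where 4 did without LOVA B. Scaled to the pan-germ-cell genes, the NTC minus PTC median was 0.61 for the meiotic genes and -0.32 for the genes of undifferentiated spermatogonia. In LOVA minus PTC these were 0.43 and -0.44. The 10 described genes lay between them at 0.33 and -0.25. Over all genes the medians on that scale were 0.95 and 0.89, above those of all these lists. These medians are descriptions, and the difference between the lists was not tested.

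The genes whose profile over the 6 libraries was most like that of 3 of the regulators were found among 11321 genes with a mean of at least 5 CPM, by the root mean square (RMS) difference of centred log2 CPM. For Kit these were Gfra4, a GDNF-family co-receptor (0.13), Slx1b (0.14) and Ptrhd1 (0.15), beside an RMS of 0.37 for Kit itself. For Stra8 they were Sh3gl2 (0.33), Wt1 (0.34) and Agbl3 (0.35), beside 0.65 for Stra8. For Dmrtb1 they were Ppp1r35 (0.24), Fthl17c (0.36) and Dscc1 (0.38), beside 0.88 for Dmrtb1. Like Dmrtb1, Ppp1r35 was low in LOVA, with 8.47 and 3.44 CPM in LOVA, 15.5 and 7.61 CPM in NTC, and 15.8 and 14.0 CPM in PTC. Like Stra8, Wt1 was lowest in PTC A, with 20.5 and 19.9 CPM in LOVA, 28.0 and 26.4 CPM in NTC, and 9.22 and 20.2 CPM in PTC. Wt1 is also a marker of Sertoli cells, whose 8 markers summed to 0.00304% to 0.00305% of counts in LOVA, 0.00320% to 0.00373% in NTC and 0.00155% to 0.00280% in PTC. The 6 mast cell markers, another KIT-positive cell type, summed to between 0 and 5 counts per library. With 6 libraries, such likeness is a description.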

How the data were processed

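RNA sequencing measured gene expression in 6 libraries, 2 each from LOVA, NTC and PTC cultures. The deposited file holds raw counts per Ensembl gene, made by the authors; per the submitters' processing notes the tools were Trimmomatic, Bowtie2, RSEM and DESeq2, without versions, and the build was mm10. The counts would be rounded estimates if they came from RSEM. Whether counting used strand is not given in the sources used here; the kit is directional, per the labels. Column names carry the letters A and B, which nothing ties to the replicate numbers of the labels, so libraries were assigned by group. Of 31384 genes, 7358 had no count; GENCODE M21 gave symbols and coordinates, and 21 identifiers had no symbol.

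Genes were kept by filterByExpr (16121), scaled by TMM and fitted over all 6 libraries with 1 coefficient per group (edgeR 4.0.16, robust quasi-likelihood, R 4.3.3), with 3 residual degrees of freedom and a common biological coefficient of variation of 0.26. Calls needed an adjusted p under 0.05 (Benjamini-Hochberg, all genes tested), and intervals are 95%. An exact permutation test of 2 against 2 libraries cannot go below a two-sided p of 0.333, so none is given. Alternatives were DESeq2 1.42.0, limma-voom (limma 3.58.1), DESeq2 size factors, scaling to 16 pan-germ-cell genes, other filters, 2-group fits, a block by letter and each library left out. Intervals include the spread between libraries; PCR copies were not marked.

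The 10 genes and all lists were chosen with earlier results of these data known. Named besides the 10 were, per contrast, up to 4 called genes of the retinoic acid, KIT, undifferentiated and meiotic lists with the lowest adjusted p, or the 2 most abundant where none was called. The rule also takes the 2 most abundant markers of each cell type, and the 3 genes most like Kit, Stra8 and Dmrtb1; where nothing rested on such a gene its values are left out, and 1 gene of the retinoic acid list is not reported here, though counts include it. Rxrb, Sycp1, Sycp2, and the values of Rdh11 in NTC, Aldh1a2 in LOVA and Zbtb16 by library, were added after their values were seen. Promoters were the 250 bases before each RefSeq start in GRCm38.p6, whose starts were checked against GENCODE. For a window of each of Dmrtb1, Upp1 and Rarg, the bases after the start were not found in a GENCODE transcript. The Rarg window that holds AGGTCA was among these. The Stra8 start lay 12 bases from the nearest GENCODE start, and its window lies inside the span given for the gene.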

Additional observations from a re-analysis of the deposited data

How the results depend on the processing

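No alternative called any of the 10 genes higher in any comparison. The 4 called lower in NTC minus PTC became 0 with pan-germ-cell scaling and ranged from 0 (without NTC B or PTC B) to 4 when 1 library was left out, with 1 without NTC A or PTC A. The 3 in LOVA minus PTC became 0 with that scaling, 6 with no low-count filter, and 0 (without LOVA B or PTC B) to 7 (without LOVA A) with 1 library left out, with 1 without PTC A. In LOVA minus NTC, 1 was called with no low-count filter. The replicate block by column letter gave 4, 5 and 0, adding Sohlh2 (adjusted p = 0.00213) and Dmrtb1 (-1.40, adjusted p = 0.0125) in LOVA minus PTC. A minus B differences correlated over genes at 0.366 (LOVA, NTC), 0.293 (LOVA, PTC) and 0.247 (NTC, PTC), a hint from the data; the letters are not the labels' numbers and were not treated as a pairing.

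The sign turned in these cases, and the cause was not tested. With pan-germ-cell scaling, NTC minus PTC was 0.0041 for Sohlh2, 0.76 for Neurog3 and 0.65 for Rarg, LOVA minus PTC was 0.68 for Kit, 0.48 for Neurog3 and 0.48 for Rarg, and LOVA minus NTC was -0.10 for Sohlh2 and -0.13 for Sox3. Dmrtb1 in NTC minus PTC was -0.0329 with limma-voom and -0.0387 with the block. Sox3 in LOVA minus NTC was -0.0004 with DESeq2 size factors, -0.0011 with DESeq2 and -0.0061 with the block. With 1 library left out, NTC minus PTC ranged from -0.64 to 0.67 for Dmrtb1, -0.24 to 0.74 for Kit and -0.53 to 0.26 for Neurog3. LOVA minus PTC ranged from -0.27 to 1.36 for Stra8, -0.56 to 0.42 for Kit and -0.76 to 0.12 for Neurog3. LOVA minus NTC ranged from -0.42 to 0.40 for Sohlh2, -0.48 to 0.37 for Sox3, -0.71 to 0.17 for Stra8, -1.46 to 0.48 for Sohlh1, -0.61 to 0.30 for Dmrt1, -0.57 to 0.19 for Neurog3 and -0.30 to 0.14 for Rarg.

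Over all genes, called higher and lower were 3472 and 2086 in NTC minus PTC, 5013 and 44 with pan-germ-cell scaling, 4421 and 3632 with the block, and 1 and 0 without NTC B. In LOVA minus PTC they were 3192 and 1747, 4026 and 41 with that scaling, 3631 and 2703 with no low-count filter, 2334 and 881 fitted on those groups alone, 4280 and 3466 with the block, and 701 and 57 without PTC A. In LOVA minus NTC they were 0 and 0, 44 and 147 with no low-count filter, and 18 and 72 with the block. A missed call does not show that levels were alike.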
